A study of Mus musculus with 30 samples.

Results

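The genes described here encode 10 DExH-box RNA helicases related to YTHDC2. They were taken by symbol (Dhx9, Dhx15, Dhx16, Dhx29, Dhx30, Dhx33, Dhx36, Dhx37, Dhx38 and Dhx57) from the 55566 features of the adult count table, and their gene identifiers were joined to 15145 genes at postnatal day 8 and 14846 at day 10. All 10 were found in each table and all 10 passed the filter on low counts in adult testis. The libraries came from testis of C57BL/6J mice. At day 8, 3 Ythdc2 -/- mice stood against 3 Ythdc2 +/+ mice, and at day 10, 3 Ythdc2 -/- mice stood against 2 Ythdc2 +/- mice and 1 Ythdc2 +/+ mouse. Each juvenile animal gave a total RNA library and a library of ribosome footprints, the pieces of mRNA covered by ribosomes. In adults, 3 mice homozygous (WLA/WLA) and 3 mice heterozygous (WLA/+) for the Ythdc2 WLA allele gave RNA libraries. In each adult genotype, 2 mice were 24 weeks old and 1 was 20 weeks old. Both adult groups carried at least 1 copy of WLA, so neither was wild type. The labels do not say what the WLA allele changes or which part of Ythdc2 the knockout removes.

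DExH helicases use ATP to move along RNA, to part its strands or to strip proteins from it. Members of the family act at many steps of an mRNA's life, from splicing and ribosome assembly to translation and decay. YTHDC2 is the family member that also carries a YTH domain, which binds N6-methyladenosine, and male germ cells need it to pass from mitosis into meiosis. The question put to the tables here was whether its relatives differed in RNA level or ribosome occupancy when Ythdc2 was lost or altered. Whether one helicase can stand in for another cannot be read from RNA levels.

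In the comparison of all libraries as labelled, no member passed the test, in adult or juvenile testis. The largest adult difference was that of Dhx37, whose RNA was 1.16 times higher in homozygous than in heterozygous testis. The 95% interval of that ratio ran from 1.05 to 1.29, and the adjusted p over all features was 0.228 (edgeR). Whether Dhx37 and Dhx38 passed in adults depended on 1 heterozygous library, as set out below. With any 1 library left out, the log2 fold change ran from 0.19 to 0.26 for Dhx37 and from 0.0054 to 0.18 for Dhx38.

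The members lie apart in the genome, and none is on chromosome 18 with Ythdc2. In the RefSeq annotation of GRCm38.p6, the assembly also called mm10, Dhx9 spans chr1:153455756-153487688 and Dhx36 spans chr3:62468015-62507034. Dhx15 (chr5:52150203-52190546) and Dhx37 (chr5:125413747-125434139) share a chromosome, as do Dhx16 (chr17:35879764-35892670) and Dhx57 (chr17:80238304-80290476). Dhx38 spans chr8:109547999-109565861, Dhx30 chr9:110084319-110117616, Dhx33 chr11:70984091-71004533 and Dhx29 chr13:112927680-112969432. The span of Dhx57 overlaps those of Morn2 and the noncoding Gm52289, and that of Dhx29 overlaps the pseudogene Gm8795. Short noncoding features lie within Dhx9 (a tRNA), Dhx30 (Gm10615) and Dhx33 (Gm22297). The sources used here do not say whether reads were counted by strand, so the counts of these 5 genes are less certain than those of the others.

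Promoter sequence was held for 9 of the 10 genes in RefSeq tables of GRCm38.p6, as windows from 250 bases before to 50 bases after an annotated start. The entry for Dhx38 is missing, and the first of 2 windows was used for Dhx30. The motif CCGGAAG, a core bound by ETS factors, or its reverse complement was present in 5 of 9 windows, namely those of Dhx9, Dhx16, Dhx30, Dhx36 and Dhx37. It was present in 11.9% of the windows of 17491 coding genes. These matches are shown because they are a feature shared by several members that the choice of genes did not use. The motif was picked after some of these windows had been read, so the count is a description. Each window is printed along the gene's own strand, with the motif in capitals. Only the last one holds the motif as its reverse complement.

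Dhx9: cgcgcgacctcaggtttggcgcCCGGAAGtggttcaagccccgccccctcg
Dhx16: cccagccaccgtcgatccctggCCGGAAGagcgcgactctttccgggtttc
Dhx30: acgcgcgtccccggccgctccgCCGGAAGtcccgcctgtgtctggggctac
Dhx37: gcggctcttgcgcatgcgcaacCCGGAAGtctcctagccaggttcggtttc
Dhx36, upstream match: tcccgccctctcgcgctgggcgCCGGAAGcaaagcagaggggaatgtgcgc
Dhx36, downstream match: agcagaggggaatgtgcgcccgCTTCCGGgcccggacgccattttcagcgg

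On GRCm38.p6 the window of Dhx9 is chr1:153487728-153487778 and that of Dhx30 is chr9:110117652-110117702, both on the minus strand. The window of Dhx37 is chr5:125434084-125434134 and those of Dhx36 are chr3:62507007-62507057 and chr3:62506975-62507025, also on the minus strand. The window of Dhx16 is chr17:35879742-35879792 on the plus strand. Counted from the start site, the first base of the motif lay at -96 in Dhx9, at -64 in both Dhx30 and Dhx37, at -47 and -15 in Dhx36 and at -14 in Dhx16. The start sites of the promoter table are not always the outermost base of the gene span given above. They lie inside it by 14 bases in Dhx16, 28 in Dhx9, 46 in Dhx36, 91 in Dhx37 and 101 in Dhx33. Of the 6 matches, 3 are therefore wholly within the annotated gene span, namely those of Dhx16 and Dhx37 and the downstream match of Dhx36, while the upstream match of Dhx36 straddles its edge. Searched on both strands in the same way, the Sp/KLF box GGGCGG was in 6 of 9 windows and in 46.3% of coding genes, and CCAAT was in 3 of 9 and 39.0%. The NRF1 core GCGCATGCG was found in Dhx37 alone of the 9 (2.41% of coding genes), as a pair of matches that overlap each other. The E-box CACGTG was found in Dhx33 alone of the 9 (7.90%) and the cyclic AMP response element TGACGTCA in Dhx36 alone of the 9 (2.34%). The TATA box TATAAA (13.3% of coding genes) and the YY1 core AAGATGGC (3.22%) were in 0 of 9. The windows had a median GC content of 61.7%, against 56.3% over coding genes, and a median ratio of observed to expected CpG of 0.894, against 0.576. Dhx57 stood apart with a GC content of 42.7% and no match to any of the 8 motifs. The libraries do not measure promoter activity, and a match is not a bound site.

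**Figure D1:**
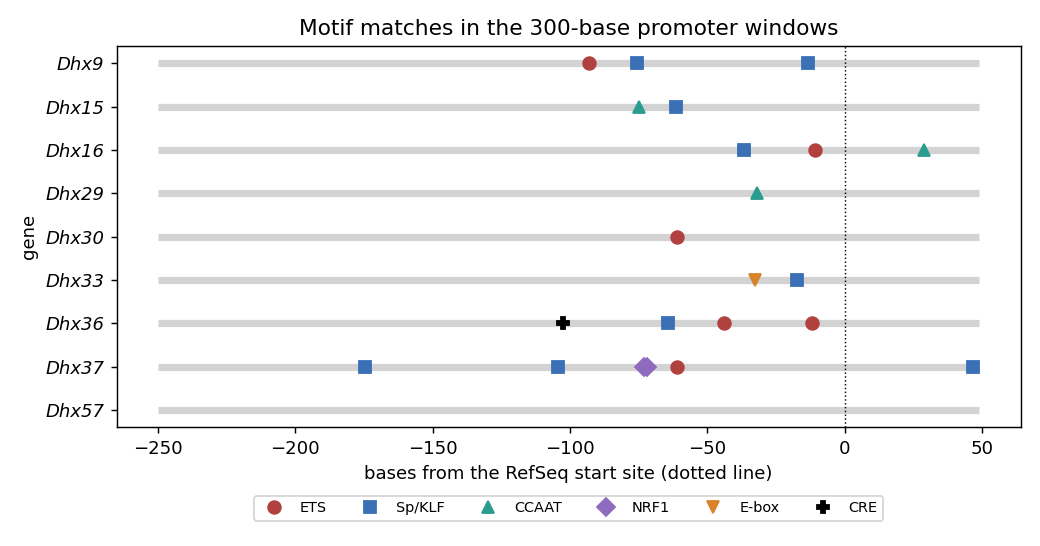
Positions of motif matches, by type, in the promoter windows of 9 members, in bases from the RefSeq start site (dotted line; grey bars are the windows searched). All 6 matches to the ETS core, in 5 genes, lie upstream of the start site that the promoter table uses, with first bases from -96 to -14, though 3 of them are within the gene span as annotated, and Dhx57 has no match.

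Counted reads per adult library ranged from 33331987 to 43707798, and the 10 members together took between 0.0800% and 0.0895% of them. Ythdc2 itself was at 34.3, 35.8 and 29.9 CPM (reads relative to the library total, scaled by TMM) in heterozygous libraries 1 to 3 and at 35.8, 32.8 and 33.7 CPM in homozygous libraries 1 to 3, so the groups overlapped. The juvenile level of Ythdc2 was not analysed here. Spermatid markers were abundant in every adult library, with 12 of 12 genes tested and summed levels of 9725 to 11600 CPM in heterozygous and 11280 to 11623 CPM in homozygous testis. Sertoli markers (12 of 13 tested) summed to between 1128 and 1369 CPM in heterozygous and between 1303 and 1326 CPM in homozygous libraries, and Leydig markers (8 of 8) to between 357 and 582 and between 551 and 632 CPM. In bulk tissue, fewer cells of a type and less RNA per cell cannot be told apart.

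One adult library stood apart from its label. Over the 22446 features tested, heterozygous library 1 had a Pearson correlation of log2(CPM + 1) of 0.9963 and 0.9955 with the other heterozygous libraries, and of 0.9970 to 0.9977 with the 3 homozygous libraries. Heterozygous libraries 2 and 3 had a correlation of 0.9976 with each other, and the homozygous libraries had 0.9980 to 0.9985 among themselves. These are correlations across genes, which are not independent replicates. The columns of the table do not name animals, so the age of this library is not known here. The members' fold changes are therefore given with and without it. Heterozygous library 1 was singled out from these same data, by its likeness to the homozygous libraries. Leaving it out therefore tends to widen the difference between the groups. Adjusted p-values without it are given as a description and are not independent evidence of a difference.

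With all 6 libraries, 53 of 22446 features passed an adjusted p of 0.05, which is 0.236%, and 0 of the 10 members did (edgeR quasi-likelihood test). A count of 0 among 10 genes is near that background. At an unadjusted p under 0.05 there was 1 member, Dhx37, against 13.2% of all features, and DESeq2 also called 0 members. The median log2 fold change of the members was 0.033, and 8 of 10 lay above 0, against 51.5% of all features, though Dhx29, Dhx36 and Dhx57 turned below 0 with upper-quartile scaling. Their median absolute log2 fold change was 0.033, where that of all features was 0.109 and that of the 9224 features at or above the level of the lowest member was 0.069. With all 6 libraries the 95% intervals of the 10 members ran from -0.18 to 0.37 on the log2 scale. Each interval holds for its own gene, so together they are not a joint 95% range. Without homozygous library 1 the interval of Dhx37 reached up to 0.44 and that of Dhx57 down to -0.25. The groups did not overlap for 2 of 10 members, Dhx33 and Dhx37, while they did not overlap for 19.3% of all features. CPM is not divided by transcript length, for which no value was held, so levels are compared below within a gene and never between genes.

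Dhx37 is the helicase that acts on the small subunit processome, where it helps release the U3 small nucleolar RNA from the ribosome precursor, and variants of its human counterpart are known from disorders of testis development. Its RNA stood at 22.5, 20.8 and 20.0 CPM in heterozygous libraries 1 to 3 and at 23.3, 24.8 and 25.6 CPM in homozygous libraries 1 to 3. Every homozygous library was above every heterozygous one. The means were 21.1 ± 1.3 and 24.6 ± 1.1 CPM (SD, n = 3 each), a log2 fold change of 0.22 ± 0.07 (SE; edgeR adjusted p 0.228). Without heterozygous library 1, which was picked from these same data, the log2 fold change was 0.26 ± 0.07. Dhx37 then passed the threshold (adjusted p 0.0240, edgeR).

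Dhx33, a nucleolar helicase with a part in the transcription of ribosomal DNA, showed the other pair of groups that did not overlap. It was at 25.1, 24.0 and 23.2 CPM in heterozygous libraries 1 to 3 and at 26.7, 25.9 and 25.6 CPM in homozygous libraries 1 to 3. The gap between the nearest libraries of the groups was less than the SD of either group. The means were 24.1 ± 0.988 and 26.1 ± 0.536 CPM (SD, n = 3 each), and the log2 fold change was 0.11 ± 0.06 (SE; edgeR adjusted p 0.457). Without heterozygous library 1 it was 0.14 ± 0.06 and did not pass (adjusted p 0.170, edgeR).

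**Figure D2:**
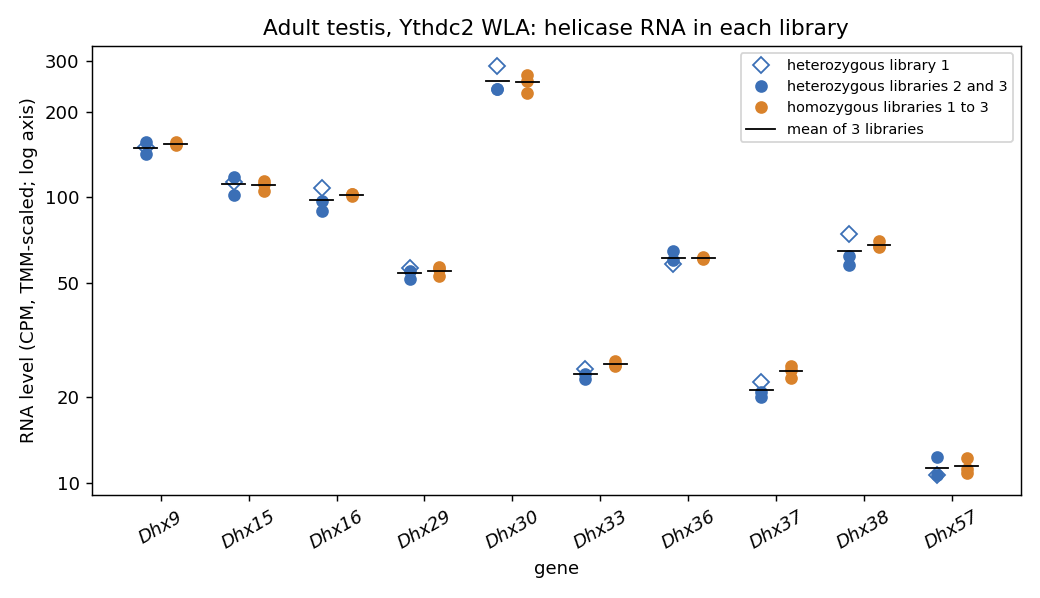
RNA level of each member in adult testis, in TMM-scaled CPM on a log axis, with heterozygous libraries in blue (library 1 as an open diamond), homozygous libraries in orange and the mean of each group of 3 as a line; heights of different genes are not comparable, since CPM is not divided by length. Dhx33 and Dhx37 are the genes whose groups do not overlap, and in Dhx16, Dhx30 and Dhx38 the open diamond is the highest of the 6 libraries.

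Of the splicing helicases, Dhx38 encodes the counterpart of yeast Prp16, which remodels the spliceosome between its catalytic steps. It was at 74.4, 62.3 and 57.8 CPM in heterozygous libraries 1 to 3 and at 70.3, 67.0 and 67.5 CPM in homozygous libraries 1 to 3. Heterozygous library 1 was above all homozygous libraries and the remaining heterozygous libraries were below them. With all libraries the log2 fold change was 0.07 ± 0.08 (SE; edgeR adjusted p 0.718). Without heterozygous library 1, which was picked from these same data, it was 0.18 ± 0.05 and passed the threshold (adjusted p 0.0432, edgeR).

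Dhx16, the counterpart of yeast Prp2, which readies the spliceosome for its first step, also had heterozygous library 1 above, and the remaining heterozygous libraries below, all homozygous ones. It was at 107.7, 89.6 and 96.9 CPM in heterozygous libraries 1 to 3 and at 102.9, 102.5 and 101.1 CPM in homozygous libraries 1 to 3. The homozygous libraries lay close together, with an SD of 0.966 CPM against 9.10 CPM in heterozygous testis (n = 3 each). Its log2 fold change was 0.06 ± 0.06 (SE; edgeR adjusted p 0.714), and 0.13 ± 0.05 without heterozygous library 1 (adjusted p 0.124, edgeR). Dhx15, the counterpart of yeast Prp43, which takes spent spliceosomes apart, was at 113.4, 118.0 and 102.3 CPM in heterozygous libraries 1 to 3 and at 113.8, 111.4 and 105.6 CPM in homozygous libraries 1 to 3. All homozygous values lay within the heterozygous range, and the log2 fold change was -0.01 ± 0.06 (SE; edgeR adjusted p 0.949), and -0.00057 ± 0.06 without heterozygous library 1.

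Among helicases of translation and mitochondria, Dhx29, which binds the small ribosomal subunit and helps it scan structured leaders, was at 56.4, 55.1 and 51.9 CPM in heterozygous libraries 1 to 3 and at 57.0, 56.0 and 53.1 CPM in homozygous libraries 1 to 3. These ranges overlapped, with a log2 fold change of 0.02 ± 0.05 (SE; edgeR adjusted p 0.889), and of 0.05 ± 0.06 without heterozygous library 1. Dhx30, whose product works in mitochondrial RNA granules and ribosome assembly, was at 288.0, 239.3 and 240.7 CPM in heterozygous libraries 1 to 3 and at 269.3, 256.5 and 233.0 CPM in homozygous libraries 1 to 3. Heterozygous library 1 was again the highest. The log2 fold change of Dhx30 was -0.02 ± 0.07 (SE; edgeR adjusted p 0.944) and 0.07 ± 0.06 without that library (adjusted p 0.454, edgeR).

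The remaining members showed small differences. Dhx9, known as RNA helicase A, which opens double-stranded RNA and RNA:DNA hybrids, was at 150.6, 155.8 and 142.2 CPM in heterozygous libraries 1 to 3 and at 156.5, 153.5 and 152.2 CPM in homozygous libraries 1 to 3. Dhx36, which unfolds G-quadruplexes, was at 58.4, 64.8 and 60.3 CPM in heterozygous and at 60.9, 61.3 and 61.8 CPM in homozygous libraries 1 to 3. In both genes the homozygous libraries lay inside or near the range of the heterozygous ones. The log2 fold changes were 0.04 ± 0.05 for Dhx9 and 0.0023 ± 0.05 for Dhx36 (SE; edgeR adjusted p 0.736 and 0.992). Without heterozygous library 1 they were 0.05 ± 0.05 and -0.03 ± 0.05. Dhx57, the least studied of these helicases, was at 10.7, 12.3 and 10.7 CPM in heterozygous and at 12.2, 11.2 and 10.8 CPM in homozygous libraries 1 to 3. It had the lowest counts of the members, 371 to 544 reads a library, and the groups overlapped (log2 fold change 0.02 ± 0.09 SE; edgeR adjusted p 0.933). Without heterozygous library 1 its log2 fold change was -0.01 ± 0.09.

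**Figure D3:**
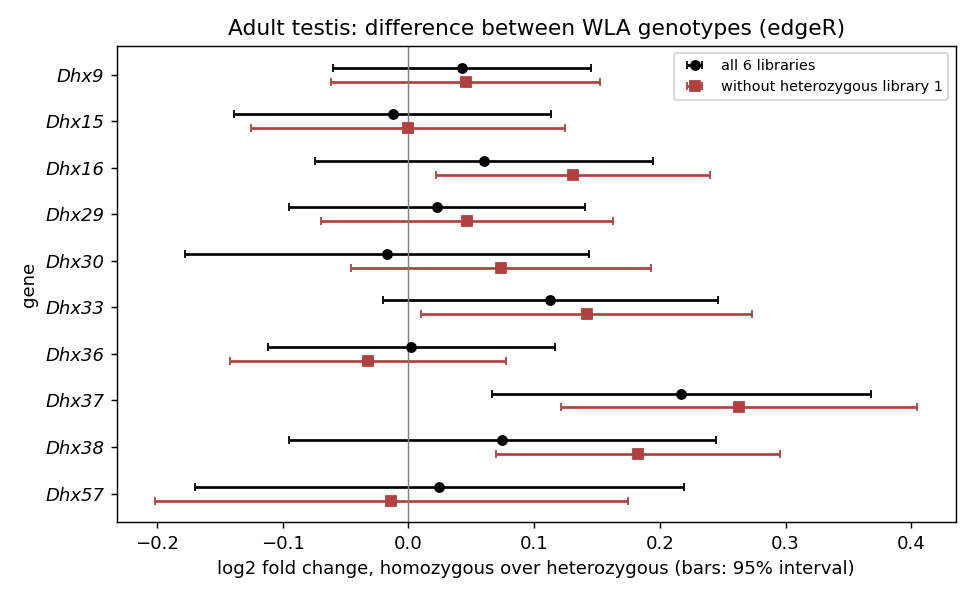
Log2 fold change of each member, homozygous over heterozygous WLA testis, with 95% intervals from edgeR, for all 6 libraries (black circles) and without heterozygous library 1 (red squares). With all libraries the interval of Dhx37 alone lies above 0, and without that library those of Dhx16, Dhx33, Dhx37 and Dhx38 do, of which Dhx37 and Dhx38 pass an adjusted p of 0.05.

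Leaving out heterozygous library 1 changed the whole table as well as the members. There were then 1917 calls among 22910 features, or 8.37%, with 1052 higher and 865 lower in homozygous testis, and 2 of 10 members were among the higher ones. The groups did not overlap for 4 of 10 members (Dhx16, Dhx33, Dhx37 and Dhx38), against 41.1% of all features, so that count is near the background. Leaving out any other single library gave 0 member calls and 3 to 15 calls in all. Over all the alternatives run, the adjusted p (edgeR, or DESeq2 in 1 alternative) ran from 0.0240 to 0.563 for Dhx37, from 0.0432 to 0.988 for Dhx38, from 0.170 to 0.772 for Dhx33, from 0.124 to 0.99977 for Dhx16 and from 0.454 to 0.974 for Dhx30. The SD over heterozygous libraries exceeded that over homozygous libraries for 10 of 10 members, and for 67.7% of all features. In heterozygous library 1, summed macrophage markers (9 of 9 tested) stood at 108.5 CPM, against 63.0 and 72.6 CPM in the remaining heterozygous and 76.5 to 86.1 CPM in the homozygous libraries. Sertoli markers there summed to 1369 CPM, against 1128 and 1192 CPM in the remaining heterozygous libraries. Those libraries had extremes of their own. Heterozygous library 3 was the lowest of the 6 for 6 of 10 members and for 22.7% of all features. Its Leydig markers summed to 357 CPM, against 582 and 538 CPM in heterozygous libraries 1 and 2 and 551 to 632 CPM in homozygous ones. The spermatid sum was lowest in heterozygous library 2, at 9725 CPM. Without heterozygous library 1, 5 of 8 Leydig, 3 of 12 Sertoli and 2 of 9 macrophage markers passed as higher in homozygous testis (edgeR, adjusted p under 0.05). Germ cell markers passed too: 3 of 12 for spermatids (1 higher, 2 lower), 2 of 9 for differentiating spermatogonia (higher) and 1 of 20 for meiotic prophase (lower). Undifferentiated spermatogonia, peritubular myoid, endothelial and red blood cell markers gave 0. The share over all features was 8.37%, and 0 markers of any of these lists passed with all 6 libraries. The part of these markers in the differences of Dhx37 and Dhx38 was not tested.

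For the juvenile testis, the authors deposited effects and adjusted p-values of anota2seq and no values per library, so no spread between animals can be given. The effects are knockout against control. Their base is not stated and they are read as log2 values, so they are set against the effects of all genes and not turned into folds. In total RNA 0 of 10 members passed an adjusted p of 0.05 at day 8, where 0.0528% of all genes did, and 0 of 10 at day 10, where 0.0% did. In footprints 0 of 10 passed at either age, where 0.0% of all genes did at day 8 and 0.0% at day 10. No unadjusted p is given in these tables. In the authors' deposited table, the smallest adjusted p of any member for total RNA was 0.576 at day 8 (Dhx57) and 0.389 at day 10 (Dhx29). With so few calls over all genes, 0 calls among 10 is near the background.

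The members' medians were small at both ages. At day 8 the median total RNA effect of the members, computed from the authors' deposited table, was 0.034, with 7 of 10 above 0, and that of all genes was -0.0024. At day 10 it was 0.0058 with 6 of 10 above 0, against 0.00058 for all genes. Of all genes, 47.2% lay above 0 in total RNA at day 8 and 51.7% at day 10. Median absolute effects in total RNA were 0.034 for the members and 0.032 for all genes at day 8, and 0.034 and 0.031 at day 10. In footprints they were 0.029 and 0.054 at day 8, and 0.052 and 0.062 at day 10. At the same ages the meiotic prophase markers, 20 genes such as Sycp1 and Dmc1, had median total RNA effects of -0.11 and -0.31, with 20 and 19 of them below 0 and 0 past 0.05. The part of these markers in the members' values was not tested.

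**Figure D4:**
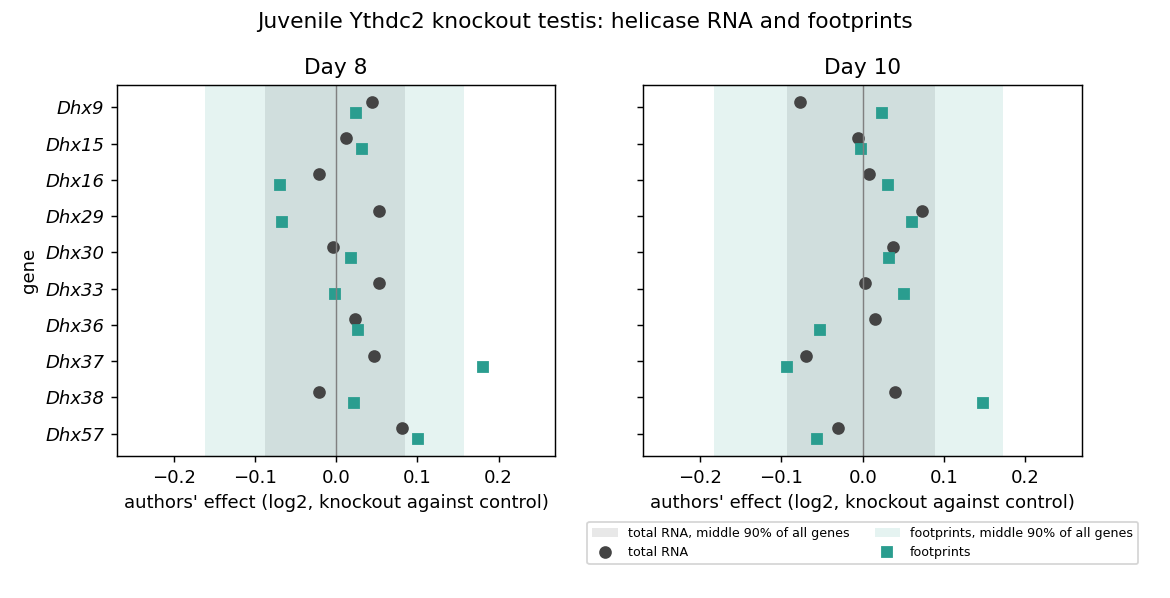
The authors' effects of Ythdc2 knockout on total RNA (grey circles) and footprints (green squares) of each member at day 8 and day 10, on a log2 scale, with shaded bands for the middle 90% of all genes in the same measure. In total RNA every member lies within the band at both ages, and in footprints Dhx37 at day 8 (0.18) is the single member outside it.

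Of the ribosome assembly helicases, Dhx37 had the largest footprint effect. By the authors' deposited table, Dhx37 stood at 0.047 in total RNA and at 0.18 in footprints at day 8, but at -0.070 and -0.093 at day 10. Its day 8 footprint effect was larger in size than those of 93.0% of genes, yet its adjusted p was 0.984 in the authors' deposited table. The sign of both measures turned between the ages, and the difference between ages was not tested. Dhx33 stood at 0.053 in total RNA and -0.0014 in footprints at day 8, and at 0.0032 and 0.051 at day 10, in the authors' deposited table.

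Splicing helicases showed no shared direction. In the authors' deposited table Dhx38 stood at -0.020 in total RNA and 0.022 in footprints at day 8, and at 0.040 and 0.15 at day 10. The day 10 footprint effect of Dhx38 was the largest of the members at that age, with an adjusted p of 0.943 in the authors' deposited table. Dhx16 stood at -0.021 in total RNA and -0.070 in footprints at day 8, and at 0.0083 and 0.031 at day 10, in the authors' deposited table. Dhx15 lay close to 0 in both measures at day 10, with -0.0062 in total RNA and -0.0017 in footprints after 0.012 and 0.032 at day 8, in the authors' deposited table.

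For Dhx29, the scanning helicase, the authors' deposited table gave 0.052 in total RNA and -0.067 in footprints at day 8, against 0.073 and 0.060 at day 10. At the same ages Dhx30 stood at -0.0035 and 0.038 in total RNA and at 0.018 and 0.033 in footprints, again in the authors' deposited table. Total RNA of Dhx9 went from 0.045 at day 8 to -0.077 at day 10, the lowest value of the members at that age, while its footprint effect was 0.024 at both ages in the authors' deposited table. For Dhx36 the authors' deposited table gave 0.023 and 0.015 in total RNA, and 0.027 and -0.053 in footprints. Dhx57 had the largest total RNA effect of the members at day 8, 0.082 with 0.10 in footprints, and stood at -0.030 and -0.057 at day 10, in the authors' deposited table. Over the family, 3 of 10 members had the same sign at both ages in total RNA (Dhx29, Dhx33 and Dhx36) and 3 of 10 in footprints (Dhx9, Dhx30 and Dhx38). The same share over all genes was not computed and no member passed, so these sign counts only describe the members.

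Translation in anota2seq is the footprint effect left after regression on total RNA, and buffering is the total RNA effect left after regression on footprints. In translation 0 of 10 members passed 0.05 at day 8, where 1.33% of all genes did, and 0 of 10 at day 10, where 2.68% did. In buffering 0 of 10 passed at day 8, with 1.49% of all genes, and 0 of 10 at day 10, with 1.37%. The nearest was Dhx37 at day 8, with a translation effect of 0.39 and an adjusted p of 0.123 in the authors' deposited table, where 3.06% of all genes had an adjusted p under 0.15. Dhx29 followed at day 8 with -0.31 and an adjusted p of 0.209 in the authors' deposited table. At day 10 the authors' deposited table had these genes at -0.019 and 0.0040, and the largest in size among the members was that of Dhx57, at -0.11 (adjusted p 0.739).

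The translation effects of Dhx37 and Dhx29 exceed the plain difference between footprints and total RNA. That difference was 0.13 for Dhx37 and -0.12 for Dhx29 at day 8, computed from the authors' deposited table. The slope of the regression, found by taking translation from footprints and dividing by total RNA, was -4.55 for Dhx37 and 4.61 for Dhx29 at day 8, from the authors' deposited table. A slope between 0 and 1 would mean that footprints follow RNA in part or in full. At day 8 the slope lay between 0 and 1 for 4 of 10 members and for 22.1% of all genes, and at day 10 for 1 of 10 members and 20.2% of genes. At day 10, 3 of 10 members (Dhx15, Dhx29 and Dhx30) had a translation effect with the opposite sign to footprints minus total RNA, and at day 8, 1 of 10 (Dhx33). The authors' classes of regulated genes held 0 of 10 members at day 8, with 0.99% of all genes, and 0 of 10 at day 10, with 1.83%.

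Genes that work with these helicases were counted in the same way. The 8 lists were other DEAH/RHA helicases, their G-patch cofactors, the spliceosome core, the small subunit processome, the mitochondrial RNA granule, scanning factors, partners of Dhx9 and Dhx36, and DEAD-box helicases. In adult testis with all 6 libraries, 0 genes of any of the 8 lists passed 0.05 (edgeR), where 0.236% of all features did, with 26 of 26 spliceosome genes and 34 of 34 processome genes tested and list medians between 0.0081 and 0.092 on the log2 scale. Without heterozygous library 1, where 8.37% of all features passed, the lists gave 1 of 8 other DEAH/RHA helicases, 2 of 21 G-patch cofactors, 0 of 26 spliceosome genes, 2 of 34 processome genes, 1 of 22 granule genes, 0 of 31 scanning factors, 2 of 22 partners of Dhx9 and Dhx36 and 1 of 29 DEAD-box helicases. This count was added after the data had been seen. The processome genes were Pwp2 (log2 fold change 0.35, adjusted p 0.0113) and Nol6 (0.25, adjusted p 0.0329), both higher in homozygous testis (edgeR). At 5.9%, the processome share was under the 8.37% of all features. Of the remaining genes, Dhx34 (0.23), Gpatch8 (0.19), Polrmt (0.36), G3bp1 (0.23), Adar (0.36) and Ddx19b (0.32) were higher. The G-patch list gene Utp14b was lower (-0.22). In juvenile total RNA and footprints 0 genes of the 8 lists passed at either age. In translation at day 8 the authors' deposited table gave Dhx34, a helicase of nonsense-mediated decay, at -1.92 (adjusted p 0.0075, 1 of 6 other family members). The authors' deposited table had Dhx34 at -0.068 in total RNA and -0.23 in footprints, so the translation effect is again larger than either.

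Single genes of other lists also passed in translation. The spliceosome gene Bcas2 (-0.73, adjusted p 0.0242, 1 of 26) and the DEAD-box gene Ddx49 (-0.66, adjusted p 0.0272, 1 of 29) passed at day 8 in the authors' deposited table. Total RNA and footprint effects were -0.062 and -0.0056 for Bcas2, and -0.045 and -0.0059 for Ddx49. In both genes footprints thus lay above total RNA, although the translation effects were below 0. At day 10 the mitochondrial Fastkd5 (0.65, adjusted p 0.0284, 1 of 23) and Ddx19a (-1.29, adjusted p 0.00267, 1 of 29) passed in the authors' deposited table. Fastkd5 stood at 0.054 in total RNA and 0.042 in footprints, and Ddx19a at 0.153 and 0.154. Footprints of Ddx19a thus lay close to its total RNA, although its translation effect was far below 0. Those of Fastkd5 lay below its total RNA, although its translation effect was above 0. In buffering, Syf2 of the spliceosome (0.28, adjusted p 0.0221, 1 of 26) and the processome genes Tbl3 (0.32, adjusted p 0.0156) and Wdr46 (-0.26, adjusted p 0.0334) passed at day 8 in the authors' deposited table. The processome list held 34 genes at that age. In total RNA and footprints Syf2 stood at 0.024 and -0.055, Tbl3 at -0.064 and -0.057, and Wdr46 at -0.074 and -0.067. The buffering effect of Tbl3 thus had the opposite sign to both its measures. These single calls stand among rates of 1.33% to 2.68% of all genes.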

How the data were processed

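Per the submitters' processing notes, the authors used STAR, DESeq2 and the mm10 build; how reads were counted is not stated. The labels' protocols name Trizol and either ribosomal RNA removal or poly(A) selection, without saying which. Raw read counts were deposited for the adult libraries, beside log2 fold changes and p-values of the authors' own comparison, which are not printed here. For juveniles, the authors deposited effects from anota2seq with adjusted p-values, per the file headers, which name no base for the effects. That these deposited effects are log2 is an inference: in the authors' translation class, footprints and total RNA differ by at least 0.263, the log2 of 1.2.

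Adult features were kept by filterByExpr. TMM scaling and the quasi-likelihood test of edgeR 4.0.16 (R 4.3.3, no covariate) followed, with Benjamini-Hochberg adjustment over 22446 features and a threshold of 0.05. Standard errors come from the test statistic. The biological coefficient of variation was 6.77%. The code was tested on simulated data. Libraries were taken as separate animals, as the labels number them; in every pair within a group, counts differed by more than sampling noise (chi-square divided by its degrees of freedom at least 1.87). Alternatives were DESeq2 1.42.0, other scalings, filters and thresholds, and leaving out libraries. All 10 members are named, and of the 8 lists up to 3 genes past 0.05 in a comparison. Members, lists and tests were chosen with earlier results of these data known. Levels per kilobase were not computed.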

Additional observations from a re-analysis of the deposited data

How the results depend on the processing

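With every library in, 0 of 10 members passed in adult testis under each threshold, scaling, filter and test run, while the count over all features moved from 53 to 159 at a threshold of 0.1, 5 at 0.01, 198 with DESeq2, 90 with upper-quartile scaling, 595 with no filter, 29 with a minimum of 10 CPM in 3 libraries and 80 with a robust fit; the cause was not tested. With a library left out, the count over all features ran from 3 to 1917 and that of members from 0 to 2, both highest without heterozygous library 1. Small member fold changes turned sign in places: with upper-quartile scaling Dhx29 (-0.0024), Dhx36 (-0.023) and Dhx57 (-0.0013), and with the filter of 10 CPM Dhx36 (-0.0022). With a library left out, log2 fold changes ran from -0.063 to 0.034 for Dhx15, -0.00013 to 0.13 for Dhx16, -0.0050 to 0.060 for Dhx29, -0.062 to 0.074 for Dhx30, -0.032 to 0.048 for Dhx36 and -0.022 to 0.10 for Dhx57. Dhx37 ran from 0.19 to 0.26 and Dhx38 from 0.0054 to 0.18. All 100 recomputed levels moved by less than 1 SD. For levels with a library left out this was fixed in advance. Leaving 1 of 3 values out cannot move their mean by as much as their own SD. Only the levels recomputed with other scalings could have moved further. At a threshold of 0.15, 1 member (Dhx37) passed in day 8 translation, as did 3.06% of all genes. No paired analysis was possible because the adult columns carry genotype and not animal, and the juvenile tables hold no values per library. Age as a block and coding length were not run for the same lack of labels and lengths.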
